A study of Mus musculus with 12 samples.

Results

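The genes described here encode the eukaryotic initiation factors, the proteins that bring the small ribosomal subunit to an mRNA and place it on the start codon. They were measured in microdissected septum of 6 lactating females, taken on postpartum days 6 to 8, and of 6 virgin females of the same age, about 70 days, and each mouse had its own Affymetrix Mouse Gene 1.0 ST array. The sources differ on whether the punches held lateral septum or the whole septum. Every mouse came from 1 line, bred from outbred hsd:ICR stock for high maternal aggression, so both groups share that background. Lactating mice had been housed with a breeder male and virgin mice with other females, and both groups were then housed singly. Lactation thus cannot be told apart here from mating, pregnancy, parturition and contact with pups. The values are PLIER intensities, which are linear summaries over the probes of a transcript cluster, a region transcribed as 1 unit in the array's design. A gene was a member when its symbol starts with Eif and a digit and the cluster names no other gene, leaving out the Eif2ak kinases and the Eif2c genes. For each gene the cluster with the highest mean over the 12 arrays was used. This gave 45 genes out of 19938 genes with a cluster of their own. Choosing the brightest cluster did not use the comparison of lactating with virgin mice. Eif1, Eif2s1, Eif3g, Eif3j1, Eif3j2, Eif4ebp3 and Eif4g1 had no cluster with a single symbol in the table used here and are not among the members.

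Initiation follows a known order. The eIF2 complex carries the initiator methionine tRNA to the small subunit, with eIF1, eIF1A, eIF5 and the large eIF3 complex, and eIF2B recharges eIF2 with GTP after each round. The eIF4 factors bind the cap, unwind the leader of the mRNA and join it to the small subunit, while the eIF4E binding proteins block the step at the cap when mTOR is inactive. In neurons these steps set how much protein is made at the cell body and at synapses, and phosphorylation of eIF2 lowers it under stress. An array measures the mRNA of the factors and not their phosphorylation or the rate of translation.

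The intensities of the 12 arrays had medians between 320 and 339. The 10 listed genes of septal GABA neurons lay between the 67.7 percentile of all clusters (Zic4) and the 98.7 percentile (Gad2). Gad1 and the transcription factor gene Zic1 lay at 98.4 and 96.8, and Nts lay at 67.9. The 4 listed striatal genes lay between 86.4 (Drd1) and 94.6 (Drd2), so these levels do not tell septum from striatum. Of 63 marker genes in 13 cell type lists, 1 was higher in lactating mice and 3 were lower (limma p under 0.05 before adjustment). At this threshold 3.86% of all genes with a cluster of their own were higher and 4.83% were lower. The higher gene was Alas2 of red blood cells, the only 1 of 3 listed blood genes with a cluster of its own. The lower genes were Cx3cr1 and P2ry12 of microglia and Ccdc153 of ependyma. P2ry12 is also among the genes that the study picked on these arrays. The 6 microglia genes summed to 6155 in virgin mouse 6, to 4347 to 4602 in the other 5 virgin mice and to 4303 to 4542 in the lactating group. Virgin mouse 6 also had the astrocyte gene Gfap at 2025 against 659 to 1260 in the other 11 mice. The 4 striatal genes summed to 9637 to 12066 in the virgin group and 7006 to 11711 in the lactating group, with a median log2 difference of −0.16 and 0 calls. The part of these cell types in the results was not tested. The 5 genes for all neurons had 0 calls, and their summed intensity was 38540 to 41730 in virgin mice and 39190 to 40940 in lactating mice. Lactating mouse 4 stood apart for 3 of the 5 excitatory neuron genes of cortex and hippocampus (Slc17a7, Neurod6 and Tbr1), with Slc17a7, a vesicular glutamate transporter, at 3722 against 113 to 1163 in the other 11 mice. Its Neurod2 and Emx1 lay within the range of the others, and it was the lowest of all mice for each of the 4 striatal genes. The 2 members called below are also given without each of these 2 mice.

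Few initiation factor genes were called between lactating and virgin mice before adjustment, and the means of those called differed by under 10%. Of the 45 genes, 2 were higher and 0 were lower at limma p under 0.05 before adjustment, on log2 of the intensity plus 16. These were Eif4a2, an RNA helicase of the cap-binding complex, and Eif3m, a subunit of eIF3, whose own chromosome the called cluster may not lie on (described with the gene). The 2 genes are 4.44% of the members. Of all genes with a cluster of their own, 3.86% were higher and 4.83% were lower at this threshold, so the share of initiation factors that was higher is near the background. No member passed an adjusted p under 0.05 from limma over all 35556 clusters, and 0 of all clusters did. The smallest adjusted p of a member was 0.619. The 2 groups overlapped for every member, while 0.451% of all genes had groups that did not overlap.

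The differences of the members leaned to the positive side, and so did those of other bright genes. In all, 31 of the 45 genes (68.9%) had a higher mean log2 value in lactating mice, with a median log2 difference of 0.03. Over all genes the median was −0.00 and 47.9% had a positive difference. However, 42 of the 45 members were brighter than the median cluster. Among all 11462 genes above that median, 67.5% had a positive difference, the median log2 difference was 0.02, and 5.88% were higher at an unadjusted p under 0.05. Genes at or below it had a positive difference in 21.4% of cases. The 95% intervals of the log2 difference excluded a difference of more than 0.2 in either direction, which is 1.15-fold, for 37 of the 45 genes. The other 8 were Eif2b5, Eif3e, Eif3i, Eif3m, Eif4a2, Eif4e1b, Eif4a3l1 and Eif4ebp1, and over all members the intervals reached from −0.25 to 0.28. In bulk tissue, fewer cells of a type and less RNA per cell cannot be told apart.

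**Figure D1:**
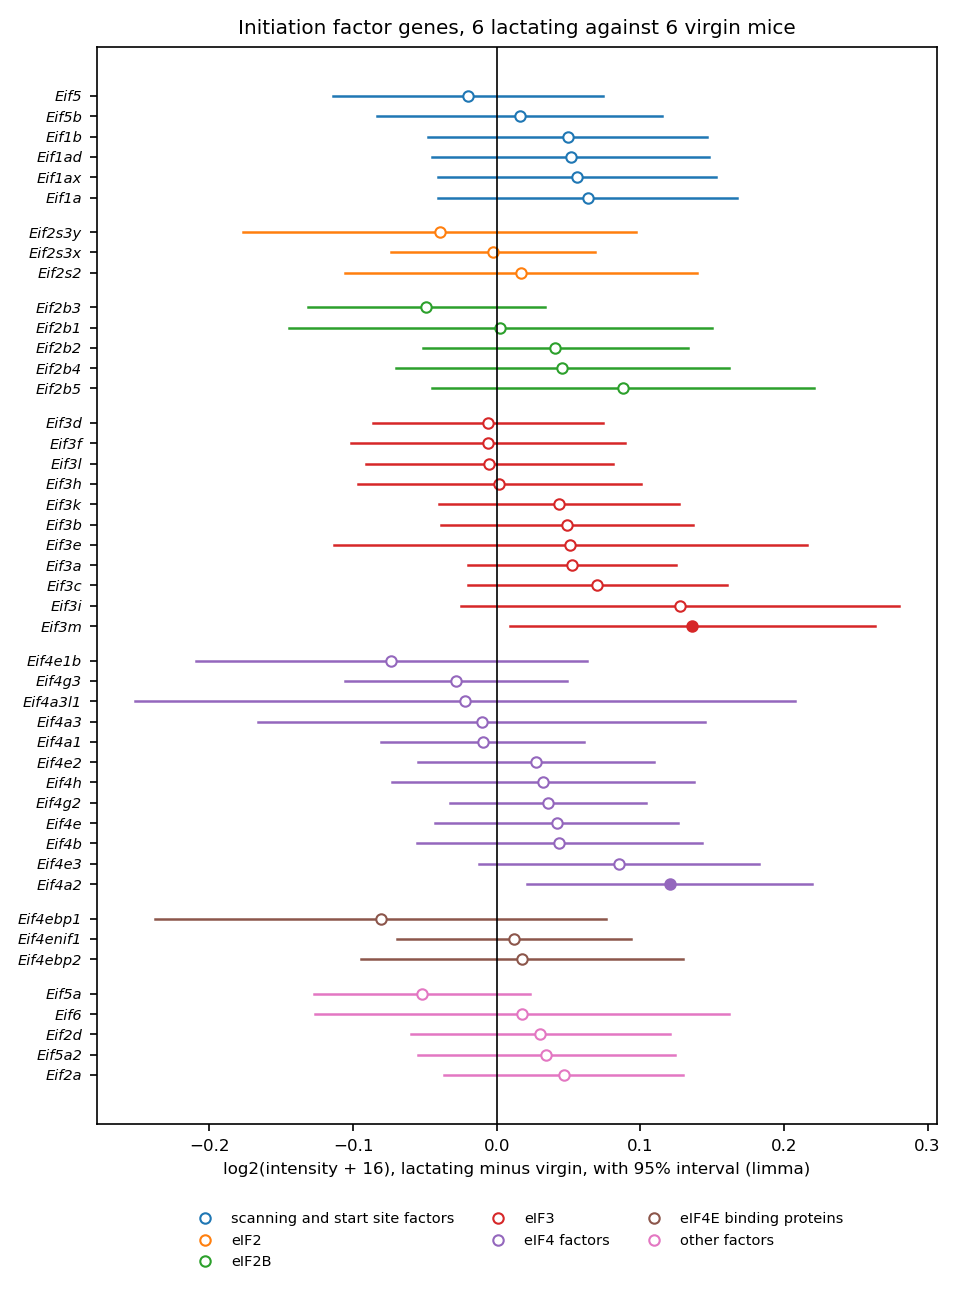
Log2 difference of each of the 45 initiation factor genes (horizontal axis, log2 of intensity plus 16, lactating minus virgin, 6 mice per group), with points for the difference, lines for the 95% interval of limma and colours for the complex. Filled points mark the 2 genes with an unadjusted p under 0.05, Eif3m and Eif4a2, and 43 intervals include 0.

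Eif4a2 had the smallest p of the 45 genes. It encodes 1 of the closely related DEAD-box helicases that unwind mRNA leaders, the form that is abundant in brain. Its intensity in virgin mice was 3046 at the lowest, 3352 at the median and 3594 at the highest. In lactating mice it was 3415 at the lowest, 3679 at the median and 3798 at the highest. The groups overlapped, and 4 lactating mice exceeded the whole virgin group. The means were 3640 ± 153 in lactating against 3349 ± 195 in virgin mice (SD, n = 6 each), which is 8.67% higher. The log2 difference was 0.12 (SE 0.0458, limma unadjusted p = 0.0210, adjusted p = 0.619 over all clusters). By exact permutation of the group labels (two-sided), p = 0.0152. Without lactating mouse 4 the log2 difference was 0.12 (limma, unadjusted p = 0.0330), and without virgin mouse 6 it was 0.11 (limma, unadjusted p = 0.0423). Without virgin mouse 2, which is the lowest, it was 0.09 (limma, unadjusted p = 0.0451), and over the 25 alternatives the p ranged from 0.00960 to 0.0474.

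Eif4a1, the paralogue that serves most tissues, was also measured, and its cluster was brighter than that of Eif4a2 in every array. Eif4a2 minus Eif4a1 lay between −1.17 (virgin mouse 2) and −0.82 (lactating mouse 1) on the log2 scale. Which form has more mRNA was not tested. Eif4a1 spanned 6823 to 7008 in the virgin group and 6573 to 7193 in the lactating group, a wider spread on both sides. Its log2 difference was −0.01 (95% interval −0.08 to 0.06), and its other 2 clusters, 1 of them numbered on its own chromosome, both had −0.01 with unadjusted p of 0.819 and 0.846 from limma. Within each array, Eif4a2 relative to Eif4a1 was higher in lactating mice by 0.13 on the log2 scale, and 5 lactating mice exceeded the whole virgin group (exact two-sided permutation test, p = 0.0195). This pair was compared after the values were seen, and paralogues as alike as these may share probe signal. The Eif4a1 cluster used was its brightest, which is numbered among genes of chromosome 19 and may not be the gene on chromosome 11. Eif4a2 had the smallest p of the members, so the test of the pair is not separate support.

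Eif3m was the other gene with an unadjusted p under 0.05. The eIF3 complex holds the small subunit open for mRNA, and Eif3m is 1 of its subunits. Its intensity was 743 at the lowest, 851 at the median and 904 at the highest in virgin mice. In lactating mice these values were 858, 918 and 990, and 4 lactating mice exceeded the whole virgin group. The difference rests in part on virgin mice 1 and 2, at 743 and 749, while the other 4 virgin mice lay between 823 and 904. The means were 915 ± 47.4 against 833 ± 73.0 (SD, n = 6 each), a log2 difference of 0.14 (SE 0.0586, limma unadjusted p = 0.0372, adjusted p = 0.623). By exact permutation of the group labels (two-sided), p = 0.0455. The call was lost without lactating mouse 1, 2, 3 or 6 or without virgin mouse 1, 2 or 4, where the unadjusted p from limma was 0.0555 to 0.0895. Without lactating mouse 4 the log2 difference was 0.15 (limma, unadjusted p = 0.0289), and without virgin mouse 6 it was 0.16 (limma, unadjusted p = 0.0199).

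The Eif3m call belongs to a cluster that may be a copy of the gene elsewhere in the genome. Cluster numbers mostly run along the chromosomes. For 96.9% of 21766 clusters, the main chromosome among genes of the 20 nearest numbers was that of the cluster's own gene in RefSeq. RefSeq places Eif3m on chromosome 2, and 19 of the 20 clusters numbered around the called one belong to genes on chromosome 1. The dimmer cluster of Eif3m, numbered among genes on chromosome 2, had a log2 difference of 0.06 (95% interval −0.08 to 0.21, limma unadjusted p = 0.360), and the mean of both gave 0.10 (limma, unadjusted p = 0.101). The brightest clusters of Eif2s2, Eif4a1, Eif4e, Eif4e1b and Eif5a were likewise numbered among genes of another chromosome. With the cluster numbered on the gene's own chromosome for these 6 genes, which was chosen after the data were seen, 1 member was higher (Eif4a2) and 0 were lower.

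**Figure D2:**
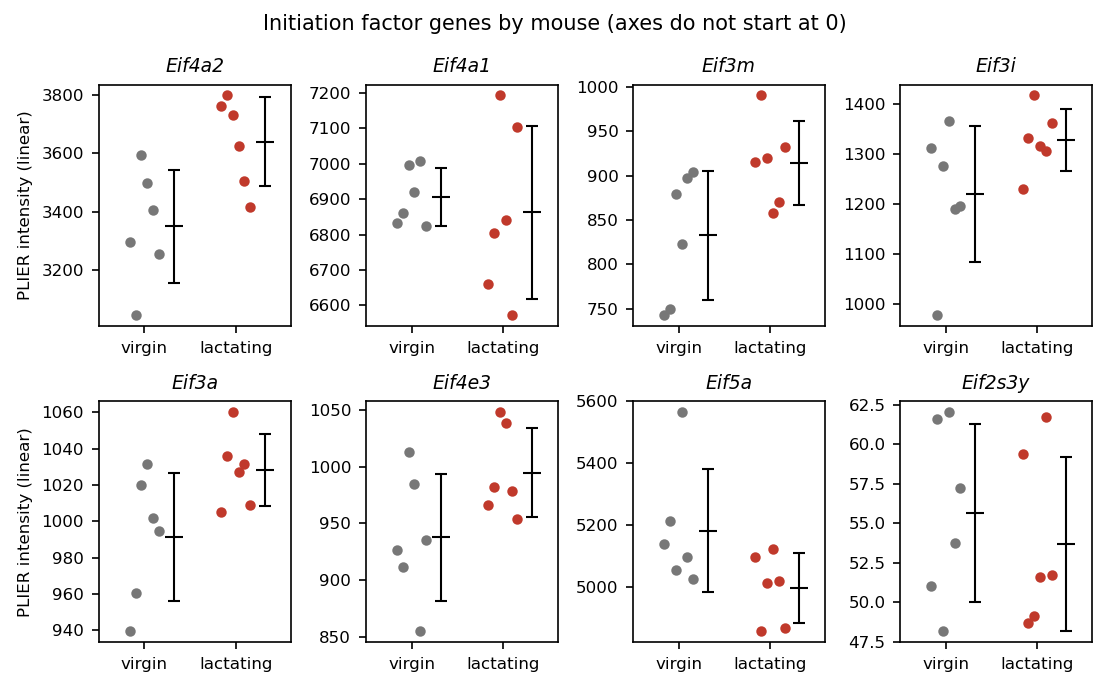
PLIER intensity (vertical axis, linear scale that does not start at 0) of 8 initiation factor genes with the 6 virgin animals in grey and the 6 lactating animals in red, a dot for each animal and the group mean and SD drawn to the right of the dots. Eif4a2 spanned 3046 to 3594 in the virgin group and 3415 to 3798 in the lactating group, while the Y-linked Eif2s3y stays between 48.2 and 62.1 in all mice.

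The stretches before the start of Eif4a2, Eif3m and Eif4a1 are shown since the first 2 carry the calls and the third is the paralogue compared with Eif4a2. For Eif3m and Eif4a1 they belong to the RefSeq gene and not to the brightest cluster, which is numbered on another chromosome. They are the 250 bases upstream of the transcript start in RefSeq, build GRCm38.p6, 5′ to 3′ on the strand of the gene, at chr16:23107218-23107467 (plus strand) for Eif4a2, chr2:105017028-105017277 (minus strand) for Eif3m and chr11:69672424-69672673 (minus strand) for Eif4a1. Capitals mark a match to 1 of 6 motifs searched on both strands, which are the ETS core CCGGAAG bound by ELK1, the YY1 motif GCCATNTTG, the NRF1 motif (GCGCA, any base, GCGC), the cAMP response element TGACGTCA, the ATF4 composite site TGATGCAA and the heat shock element (GAA, any 2 bases, TTC, any 2 bases, GAA).
Eif4a2: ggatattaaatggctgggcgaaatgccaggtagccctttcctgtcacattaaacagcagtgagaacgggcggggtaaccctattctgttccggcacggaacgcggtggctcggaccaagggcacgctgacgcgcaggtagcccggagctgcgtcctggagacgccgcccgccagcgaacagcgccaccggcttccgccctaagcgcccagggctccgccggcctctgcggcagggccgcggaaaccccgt
Eif3m: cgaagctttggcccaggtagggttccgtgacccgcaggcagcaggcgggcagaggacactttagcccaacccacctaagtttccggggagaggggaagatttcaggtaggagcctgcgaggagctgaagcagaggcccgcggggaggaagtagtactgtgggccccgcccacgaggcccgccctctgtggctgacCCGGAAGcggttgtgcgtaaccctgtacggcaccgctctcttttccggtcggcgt
Eif4a1: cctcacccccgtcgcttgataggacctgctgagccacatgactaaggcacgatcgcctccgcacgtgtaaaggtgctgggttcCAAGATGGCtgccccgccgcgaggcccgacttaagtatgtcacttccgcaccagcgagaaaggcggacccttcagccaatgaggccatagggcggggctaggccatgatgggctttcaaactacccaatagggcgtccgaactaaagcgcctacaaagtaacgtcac

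Eif3m holds the ETS core from −55 to −49 relative to its start, Eif4a1 holds the YY1 motif on the opposite strand from −167 to −159, and Eif4a2 holds none of the 6. The motifs were chosen with the study's text known. Over the 45 members, 35 had a promoter in the table, 47 promoters in all. The ETS core was found in 11 of the 47 (23.4%) against 6.91% of all 32851 promoters. The NRF1 motif was found in 7 (14.9%), which belong to Eif3a, Eif3k, Eif4e and Eif5a, against 3.74%. The YY1 motif was found in 2 (4.26%, Eif2b4 and Eif4a1) against 1.33%, and the other 3 motifs in 0 of 47. These are matches of letters and not shown sites of binding, and 10 of the 11 genes with the ETS core, all but Eif3m, had an unadjusted p above 0.05. The Eif3m call belongs to the cluster numbered on another chromosome. Its cluster numbered on chromosome 2, where this promoter lies, had an unadjusted p of 0.360 from limma.

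Of the other eIF3 genes, 0 passed the test. The complex has 11 members here, of which 8 had a positive difference, with a median log2 difference of 0.05. Eif3i had the second largest difference of the complex, at 1328 ± 62.3 in lactating against 1220 ± 137 in virgin mice (SD, n = 6 each, log2 difference 0.13, limma unadjusted p = 0.0931). Virgin mouse 2 lay at 977 for Eif3i, below the 1189 to 1417 of the other 11 mice. Without it the log2 difference was 0.07 (limma, unadjusted p = 0.196), and without virgin mouse 4 the p was 0.0383. Eif3a, the large scaffold subunit, spanned 939 to 1031 in the virgin group and 1005 to 1060 in the lactating group. Its log2 difference was 0.05 (limma, unadjusted p = 0.141), and by exact permutation (two-sided) p = 0.0455. Eif3c, a core subunit, had a log2 difference of 0.07 (limma, unadjusted p = 0.116, and 0.0478 without virgin mouse 3). Eif3b, Eif3e and Eif3k had log2 differences from 0.04 to 0.05. For Eif3d, which can bind the cap of some mRNAs, Eif3f, Eif3h and Eif3l the log2 differences were between −0.01 and 0.00.

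Virgin mouse 2 was low across eIF3 as a whole. Of the 11 genes, 6 had their lowest intensity of all 12 arrays in this mouse and 1 was above its own mean. The median deviation of the 11 genes from their means over 12 arrays was −0.16 in virgin mouse 2 and between −0.04 and 0.06 in the other mice. Over all 45 members the medians lay between −0.07 (virgin mouse 2) and 0.05 (virgin mouse 4), and both groups held mice on either side of 0. Virgin mouse 4 and lactating mouse 3 each had 37 of the 45 genes above their means, and virgin mouse 6 had 8. Leaving out virgin mouse 2 gave a median log2 difference of 0.01 over the 45 genes, and the main value was 0.03.

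**Figure D3:**
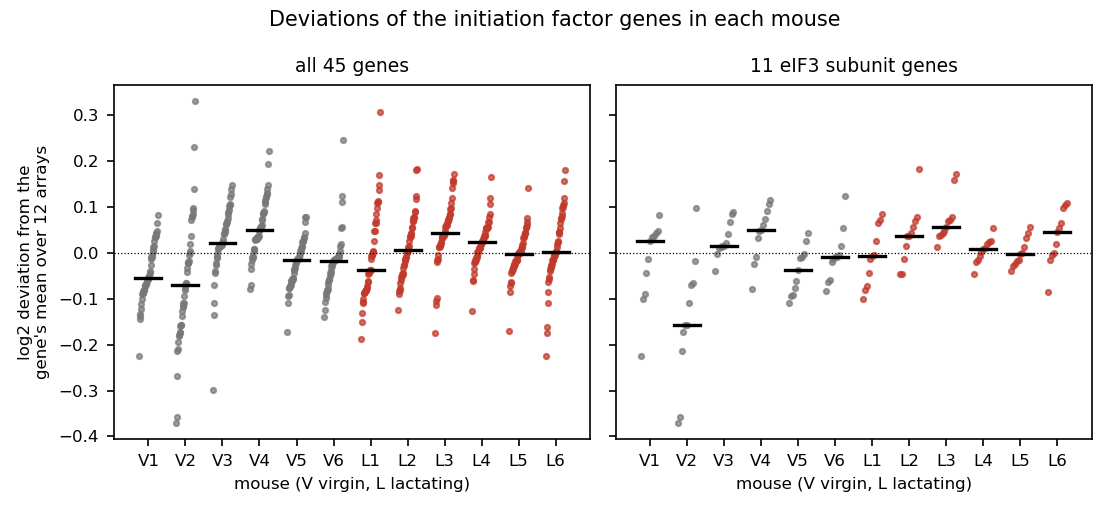
Log2 deviation of each gene from its own mean over the 12 arrays (vertical axis), for all 45 initiation factor genes (left) and the 11 eIF3 subunit genes (right), in virgin mice V1 to V6 (grey) and lactating mice L1 to L6 (red), with a black line at the median. The median for eIF3 is −0.16 in V2, and medians of both groups lie on either side of 0 in the left panel.

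The genes that deliver the initiator tRNA showed no differences that passed the test. Eif2s3x, the X-linked gamma subunit of eIF2, averaged 5031 ± 85.5 in lactating against 5042 ± 171 in virgin mice (SD, n = 6 each). Its log2 difference was −0.00 (95% interval −0.07 to 0.07). Eif2s2, the beta subunit, had a log2 difference of 0.02 (95% interval −0.11 to 0.14). Eif2s3y, the copy on the Y chromosome, which female mice lack, lay between 48.2 and 62.1 in all 12 mice, at the 6.87 percentile of all clusters. It gives the level of a cluster whose gene is absent. Of the 5 eIF2B genes, whose protein exchanges the GDP of eIF2 for GTP, the catalytic subunit Eif2b5 had the largest difference, at 612 ± 37.5 against 576 ± 50.3 (log2 difference 0.09, limma unadjusted p = 0.177). Eif2b3 lay at 1034 ± 48.5 in lactating mice and 1070 ± 30.1 in virgin mice (log2 difference −0.05, limma unadjusted p = 0.222), and 4 lactating mice lay below the whole virgin group. After quantile normalization its unadjusted p from limma was 0.0304, on the lower side. Eif2b2 and Eif2b4 had log2 differences of 0.04 and 0.05. Eif2b1, the regulatory subunit that senses phosphorylated eIF2, had a log2 difference of 0.00 (95% interval −0.14 to 0.15).

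Among the genes grouped as scanning and start site factors, 5 of 6 had a small positive difference and 0 passed the test. Of all genes brighter than the median cluster, 67.5% had a positive difference. Eif1a, which with eIF1 keeps the small subunit scanning, averaged 823 ± 45.9 in lactating against 787 ± 44.1 in virgin mice (SD, n = 6 each), the smallest p of this group (log2 difference 0.06, limma unadjusted p = 0.212). Its X-linked relative Eif1ax had a log2 difference of 0.06, and Eif1b, a relative of Eif1, and Eif1ad both had 0.05. Eif1ad was grouped here by its symbol, and a part in scanning was not tested. Eif5, which triggers GTP hydrolysis by eIF2 at the start codon, had −0.02 (95% interval −0.11 to 0.07), and Eif5b, which joins the subunits of the ribosome, had 0.02 (95% interval −0.08 to 0.12). Eif1a, Eif1ax and some further genes of the array resemble each other, and a cluster may detect more than 1 of them.

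The cap-binding factors other than Eif4a2 did not pass the test either. Eif4e, the protein that binds the cap, spanned 1677 to 1894 in the virgin group and 1753 to 1926 in the lactating group, with a log2 difference of 0.04 (95% interval −0.04 to 0.13). Its 2 dimmer clusters, both numbered on its own chromosome, each had −0.05 (limma, unadjusted p = 0.300 and 0.474). Eif4e3, a relative of Eif4e, averaged 995 ± 39.3 against 938 ± 55.9 (SD, n = 6 each), a log2 difference of 0.08 (limma, unadjusted p = 0.0823, and 0.0320 without virgin mouse 3). Eif4e2, a relative of Eif4e that represses translation, had 0.03. Eif4g2, a scaffold that lacks the site for eIF4E, spanned 3394 to 3586 in the virgin group and 3499 to 3728 in the lactating group (log2 difference 0.04, limma unadjusted p = 0.279), and the scaffold gene Eif4g3 had −0.03. The helicase cofactors Eif4b and Eif4h had log2 differences of 0.04 and 0.03. Eif4a3, a core protein of the exon junction complex rather than an initiation helicase, had −0.01 (95% interval −0.17 to 0.15). The dimmest member of this group, Eif4a3l1, a near copy of Eif4a3, averaged 145 ± 20.4 against 149 ± 26.1. Eif4e1b, known as a form of the oocyte, had −0.07 (limma, unadjusted p = 0.265). Its dimmer cluster, numbered on its own chromosome, had −0.15 (95% interval −0.33 to 0.02, limma unadjusted p = 0.0829).

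The repressors at the cap showed no call. Eif4ebp1 averaged 388 ± 38.5 in lactating against 412 ± 39.1 in virgin mice (SD, n = 6 each), a log2 difference of −0.08 (95% interval −0.24 to 0.08). That was the lowest value of the 45 genes by brightest cluster, while the dimmer cluster of Eif4e1b was lower. Eif4ebp2, the main eIF4E binding protein of the brain, averaged 1080 ± 71.9 against 1067 ± 61.7, a log2 difference of 0.02 (95% interval −0.09 to 0.13). Eif4enif1, which carries eIF4E into the nucleus and to processing bodies, had 0.01. Of the remaining factors, Eif5a, a hypusine-containing factor that also acts in elongation, was the one whose permutation p was below 0.05. It spanned 5025 to 5565 in the virgin group and 4856 to 5124 in the lactating group, and 4 lactating mice lay below the whole virgin group. Its log2 difference was −0.05 (limma, unadjusted p = 0.159), and by exact permutation (two-sided) p = 0.0476. Its second cluster, numbered on its own chromosome, had −0.02 (limma, unadjusted p = 0.484). The share of all genes with a permutation p under 0.05 was not determined. With 45 members tested, the permutation p of Eif5a and of Eif3a thus cannot be set against a background. Eif5a2, Eif6, which keeps the ribosomal subunits apart, and Eif2a and Eif2d, which can deliver initiator tRNA without eIF2, had log2 differences from 0.02 to 0.05. Across the array, 7 members had 9 further clusters, of which 0 had an unadjusted p under 0.05. A further 10 clusters name an initiation factor together with another symbol, among them Eif3j1, Eif3j2, Eif4ebp3 and Eif4a3. Their log2 differences ran from −0.04 (Eif5 with Snora28) to 0.02 (Eif3j1 with Eif3j2), with unadjusted p of 0.533 or above from limma.

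Among regulators and partners of the initiation factors, 9 genes were higher in lactating mice and 0 were lower at limma p under 0.05 before adjustment. They came from 64 genes measured out of a list of 70, so 14.1% of the measured genes were called. Of all genes with a cluster of their own 3.86% were higher, and of those above the median intensity, where 62 of the 64 lie, 5.88% were. The list had a median log2 difference of 0.03, the same to 2 decimals as the initiation factors, and 78.1% of its genes had a positive difference. The difference between the shares of the 2 lists was not tested, and no gene of either passed an adjusted p under 0.05. Eif2ak1 and Abcf1 are among the genes that the study picked on these arrays, so their calls are not independent evidence. The list itself was chosen with earlier results of these data known. Its share of calls is thus not independent of these data and cannot be read as an excess over the background.

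The calls among regulators fell in several steps of translation. Gspt2, a release factor of the eRF3 family, averaged 739 ± 38.0 in lactating against 652 ± 56.6 in virgin mice (SD, n = 6 each), which is 13.3% higher (log2 difference 0.18, limma unadjusted p = 0.00789). Ppp1r15b, which directs a phosphatase to phosphorylated eIF2 and so restores initiation, averaged 683 ± 28.8 against 616 ± 46.6 (log2 difference 0.15, limma unadjusted p = 0.0137). Eif2ak1, the heme-regulated kinase that phosphorylates eIF2, averaged 1210 ± 26.7 against 1131 ± 41.3, and 5 lactating mice exceeded the whole virgin group (log2 difference 0.10, limma unadjusted p = 0.0140). When all clusters of Ppp1r15b were averaged, its log2 difference was 0.04 (limma, unadjusted p = 0.363). The other 3 kinases of eIF2 did not pass the test, with log2 differences of −0.06 for Eif2ak2, 0.06 for Eif2ak3 and 0.03 for Eif2ak4. The downstream transcription factor gene Atf4 had 0.06 (limma, unadjusted p = 0.167), and its targets Ddit3 and Trib3 had −0.02 and −0.03.

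Abcf1, which binds eIF2 and the ribosome, averaged 919 ± 28.6 in lactating against 861 ± 24.0 in virgin mice (SD, n = 6 each, log2 difference 0.09, limma unadjusted p = 0.0177). Mars1, the enzyme that charges methionine tRNA, averaged 925 ± 40.7 against 853 ± 45.4 (log2 difference 0.12, limma unadjusted p = 0.0221). Paip1, which links the poly(A) binding protein to eIF4A, spanned 1135 to 1410 in the virgin group and 1262 to 1710 in the lactating group (log2 difference 0.18, limma unadjusted p = 0.0290). The elongation factor genes Eef1d and Eef1b2, both of the complex that recharges eEF1A, had log2 differences of 0.11 and 0.13 (limma, unadjusted p = 0.0203 and 0.0374). Fxr1, a relative of the fragile X protein, had 0.10 (limma, unadjusted p = 0.0357). Gspt2, Eif2ak1, Abcf1, Eef1d and Mars1 kept an unadjusted p under 0.05 in all 25 alternatives. For these genes the alternative by chromosome kept the same cluster and so repeats the main fit. Paip1 lost the call after quantile normalization, cyclic loess, array weights and with replicate number as a block (limma, unadjusted p of 0.0528 to 0.0653), and without lactating mouse 1 or 2 or virgin mouse 1, 2 or 6 (limma, unadjusted p of 0.0540 to 0.0674). Fxr1 lost it after quantile normalization (0.0884) and cyclic loess (0.0988), and without lactating mouse 1, 2 or 3 or virgin mouse 1 or 6 (0.0613 to 0.0819). Eef1b2 lost it with the block (0.0651) and without lactating mouse 2, 3, 5 or 6 or virgin mouse 2, 5 or 6 (0.0525 to 0.0713), and without virgin mouse 2 its log2 difference was 0.08. Of the 13 genes of the mTOR and MAP kinase input to eIF4E, 0 were called. Among them Mtor had a log2 difference of 0.06 (limma, unadjusted p = 0.118), and Pdcd4, which inhibits eIF4A, had −0.06 (limma, unadjusted p = 0.166).

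**Figure D4:**
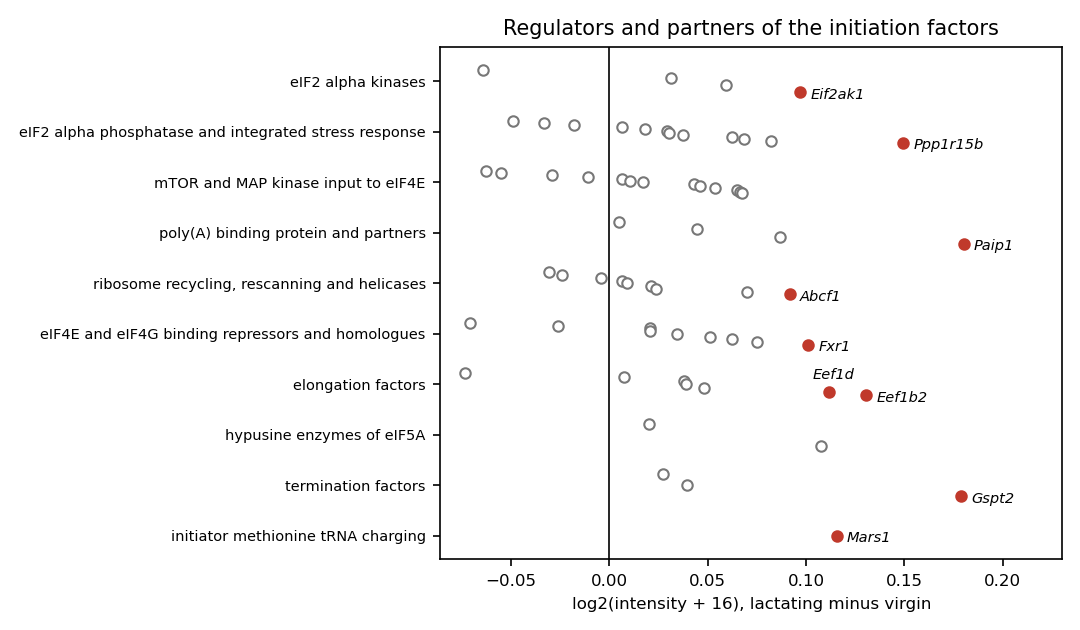
Log2 difference (horizontal axis, log2 of intensity plus 16, lactating minus virgin, 6 mice per group) of the 64 regulators and partners by their role (vertical axis), 1 point per gene. The 9 red points are genes with an unadjusted p under 0.05 from limma, all on the positive side, from Abcf1 at 0.09 to Paip1 and Gspt2 at 0.18.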

How the data were processed

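Septum RNA of 12 mice was hybridised, 1 array per mouse, and the groups were taken from the sample titles. The authors summarised the probes with PLIER and a GC bin background correction in Affymetrix Power Tools 1.12.0, and the deposited values are linear intensities. PLIER normalizes the arrays to each other, so a shift shared by all genes would not be seen. No build is named for the platform annotation in the sources used here, so array coordinates were not used. Symbols came from the platform annotation, and all 45 members were found in RefSeq.

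Log2 of intensity plus 16 was compared with limma 3.58.1 in R 4.3.3 (lmFit and eBayes, two-sided, no covariates, unpaired) over 35556 clusters without a filter, with Benjamini-Hochberg adjustment. Single genes were also tested with exact permutation of the group labels (924 ways, smallest possible p 0.00216). The scripts were tested on simulated data. The number of arrays limits the precision.

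The members and lists were chosen with earlier results of these data known. Genes were named when p was under 0.05, when they had the smallest p or the highest or lowest intensity of their complex, and for Eif4e, the eIF4E binding proteins, Eif4a1 and the eIF2 kinases. Others were named for their role, with values known. Settings varied one at a time were the linear scale, 1 or 64 as added value, quantile normalization, median subtraction, cyclic loess, clusters above the median, clusters with 1 symbol, robust eBayes with a trend, weighted arrays, a block for replicate number, averaging a gene's clusters, omission of each array and, added after seeing the data, the cluster numbered among genes of the gene's own chromosome. In the list of regulators, 6 genes had no cluster of their own and were not analysed.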

Additional observations from a re-analysis of the deposited data

Results flagged for a closer look

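Of 90 sets of 6 mice (45 genes in 2 groups), 6 held a mouse whose gap to the nearest other mouse was a share of the group's range (log2 scale) above the 95% critical value of Dixon's test, where chance gives about 1 in 20. Virgin mouse 4 was high for Eif1b (3299 against 2868 to 2970 in the other virgin mice, a gap of 0.751 of the range), Eif2b2 (1254 against 1103 to 1148, 0.687) and Eif5a (5565 against 5025 to 5212, 0.642). Virgin mouse 2 was low for the cofactor gene Eif4h (3682 against 4247 to 4419, 0.782) and the eIF3 gene Eif3b (2524 against 2799 to 2916, 0.716). Lactating mouse 1 was low for Eif4b (2938 against 3245 to 3418, 0.657).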

How the results depend on the processing

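Eif4a2 was higher in lactating mice at an unadjusted p under 0.05 from limma in all 25 alternatives, and Eif3m in 12 of 25. Eif4a2 has 1 cluster, numbered on its own chromosome, so the alternative by chromosome repeats its main fit (limma, unadjusted p = 0.0210). Averaging over clusters also left its log2 difference at 0.12. Eif3m has 2 clusters and could change in both, so 25 and 12 are not a like comparison. The number of members that were higher (2) was 1 after quantile normalization, after cyclic loess, with replicate number as a block and when averaging over a gene's clusters. It was also 1 with clusters numbered on the gene's own chromosome, an alternative chosen after seeing the data. It was 3 on linear intensities (adding Eif3a) and after median subtraction (adding Eif4e3). With array weights it stayed 2, but Eif4e3 (limma, unadjusted p = 0.037) took the place of Eif3m (0.0743). Without virgin mouse 4 it also stayed 2, with Eif3i in the place of Eif3m. The number that were lower (0) was 1 after quantile normalization and after cyclic loess, the gene being Eif2b3. The regulators that were lower (0) became 1, Eef2k, in both. Leaving out 1 mouse gave 1 to 4 higher members, with 4 without virgin mouse 3 (Eif3c, Eif3m, Eif4a2 and Eif4e3), and 6 to 10 higher regulators, where 9 were called in all mice. The higher regulators numbered 7 after quantile normalization, after cyclic loess and with the block, and 11 on linear intensities. The median log2 difference of the members was positive in every alternative, from 0.01 after quantile normalization to 0.05 after median subtraction. The cause of these changes was not tested. RNA was extracted in pairs of 1 virgin and 1 lactating mouse, but the sources used here do not say which mice formed a pair, so a paired fit of the true pairs could not be made. Same-numbered mice had residual correlations of −0.027 to 0.25, with 2 of 6 above 0.1, so the numbers were not taken as those pairs. With replicate number as a block the count of 2 higher members was 1, as Eif3m had an unadjusted p of 0.0667 from limma. By residuals, 2 of 6 lactating and 2 of 6 virgin mice correlated best with the mouse of the same number.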
